A study of Homo sapiens with 4 samples.

Results

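The clustered histone genes were followed across 4 arrays of a glioblastoma line. They were chosen by name: symbols of the HIST1 to HIST4 series in the platform annotation, or the current names of the H1, H2AC, H2BC, H3C and H4C series. The rule found 49 of the 19775 genes that had a probe set naming 1 gene. Of these, 46 are annotated as protein coding and 3 as pseudogenes, and 42 lie on chromosome 6. They comprised 10 genes of the linker histone H1, 9 of H2A, 14 of H2B, 7 of H3 and 9 of H4.

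The cells were U87TR-Da, derived from the glioblastoma line U87MG so that doxycycline switches on DACH1, a nuclear protein of the Dachshund family that represses transcription. The 4 conditions, with 1 array each, were DACH1-induced cells in serum-free medium, DACH1-silenced cells in serum-free medium, DACH1-induced cells in serum and DACH1-silenced cells in serum. Serum medium was DMEM with 10% fetal bovine serum, and serum-free medium was Neurobasal with N-2 and B-27 supplements, basic FGF and EGF. The treatment label is identical for all 4 samples, induced and silenced, and gives doxycycline at 1 µg/mL for 72 h. How the silenced state was kept, and whether U87TR-Da is 1 clone, cannot be read from the labels. No condition was repeated, and no label speaks of repeated cultures, so every p-value below measures only the spread between these 4 arrays.

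Each nucleosome wraps DNA around an octamer of H2A, H2B, H3 and H4, and H1 binds the linker between nucleosomes. Most genes for these proteins lie in clusters, often as head-to-head pairs of an H2A and an H2B gene, and are transcribed mainly in S phase, when new DNA must be packaged. Their main mRNA carries no poly(A) tail and ends in a stem-loop bound by SLBP. Some of the genes also give a polyadenylated mRNA. Labelling by the standard Affymetrix protocol starts from oligo(dT), so the arrays read chiefly polyadenylated RNA. In a bulk culture, fewer cells transcribing a gene and less RNA per cell cannot be told apart.

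Promoters of 6 of the genes are shown because the results turn on these genes: H2AC6, H2BC12, H2BC21 and H2AC25 fell under the serum-free label, while H2AC14 and H1-10 did not pass that test. The sequences are from RefSeq (GRCh38.p14), 5′ to 3′ on the gene's strand, from 250 bases before the start site to 50 bases from it. Capitals mark the octamer ATTTGCAT, the CCAAT box, the TATA box TATAAA and the H1 box AAACACA on either strand, and matches can overlap, as both TATAAA matches at the 5′ end of the H2BC12 window do.
H2AC6, chr6:26123922-26124221, plus strand: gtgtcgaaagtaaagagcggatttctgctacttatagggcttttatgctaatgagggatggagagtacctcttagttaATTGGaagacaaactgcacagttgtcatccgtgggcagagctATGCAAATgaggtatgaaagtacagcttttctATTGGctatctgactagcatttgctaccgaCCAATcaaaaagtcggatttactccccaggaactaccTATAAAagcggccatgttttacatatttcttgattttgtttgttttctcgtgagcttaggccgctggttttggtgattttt
H2BC12, chr6:27146806-27147105, minus strand: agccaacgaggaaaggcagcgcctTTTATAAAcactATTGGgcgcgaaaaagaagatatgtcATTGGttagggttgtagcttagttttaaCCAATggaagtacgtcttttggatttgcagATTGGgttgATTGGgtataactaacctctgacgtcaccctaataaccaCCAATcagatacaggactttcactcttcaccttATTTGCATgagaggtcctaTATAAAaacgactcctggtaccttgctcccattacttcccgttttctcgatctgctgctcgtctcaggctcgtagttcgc
H2BC21, chr1:149886633-149886932, minus strand: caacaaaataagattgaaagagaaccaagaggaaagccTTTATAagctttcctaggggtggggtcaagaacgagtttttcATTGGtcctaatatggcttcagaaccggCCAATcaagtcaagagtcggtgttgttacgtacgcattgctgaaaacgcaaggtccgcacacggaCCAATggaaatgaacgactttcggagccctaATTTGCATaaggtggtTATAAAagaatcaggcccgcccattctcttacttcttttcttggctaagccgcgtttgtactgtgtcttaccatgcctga
H2AC25, chr1:228457824-228458123, minus strand: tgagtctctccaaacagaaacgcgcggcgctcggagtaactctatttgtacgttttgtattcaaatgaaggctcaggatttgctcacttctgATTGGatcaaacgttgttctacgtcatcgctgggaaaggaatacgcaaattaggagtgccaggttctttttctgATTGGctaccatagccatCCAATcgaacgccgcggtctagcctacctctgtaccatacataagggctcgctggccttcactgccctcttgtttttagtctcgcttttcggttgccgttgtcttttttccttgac
H2AC14, chr6:27814728-27815027, minus strand: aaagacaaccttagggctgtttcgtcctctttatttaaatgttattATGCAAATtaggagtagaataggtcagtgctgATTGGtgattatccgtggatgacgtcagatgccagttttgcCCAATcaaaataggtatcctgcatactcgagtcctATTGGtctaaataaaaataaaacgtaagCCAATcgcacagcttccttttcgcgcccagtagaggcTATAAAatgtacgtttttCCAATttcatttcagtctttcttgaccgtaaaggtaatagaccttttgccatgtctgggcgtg
H1-10, chr3:129316237-129316536, minus strand: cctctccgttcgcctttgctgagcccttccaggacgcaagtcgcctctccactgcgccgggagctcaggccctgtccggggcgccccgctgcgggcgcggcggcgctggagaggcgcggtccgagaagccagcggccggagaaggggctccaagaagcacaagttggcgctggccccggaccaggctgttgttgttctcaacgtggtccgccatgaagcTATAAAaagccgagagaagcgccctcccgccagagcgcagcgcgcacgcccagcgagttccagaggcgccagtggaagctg

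The H2AC6 window also holds the start site of H2BC4, its head-to-head partner, 246 bases away, and the windows of the pair share 255 bases. The octamer, bound by OCT1 and known from H2B promoters, occurred in 16 of the 43 histone windows in the RefSeq table, against 1.76% of all 34796 windows of the same length. CCAAT boxes occurred in 37 of the 43, against 34.6% of all windows. TATAAA occurred in 28, against 11.6%, and AAACACA, known from H1 promoters, in 7, against 5.66%. In the H2BC12 and H2BC21 windows the octamer began 49 and 46 bases before the start site, and TATAAA began 30 bases before it in both. The H2AC25 window held CCAAT boxes only, and the H1-10 window a single TATAAA.

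Signals are linear intensities from MAS5, the Affymetrix algorithm that scales each array and subtracts background. A floor of 10.9, the 40th percentile over the 4 arrays, replaced lower signals ahead of the log2 step, and folds against such a signal are written "at least". A gene entered the limma fit when 2 of the 4 arrays reached 17.2, the median of all signals. Only 18 of the 49 histone genes did so. Of the other 31, 27 reached the median on no array and 4 on 1 array, 15 lay under 10.9 on all 4, and the highest signal among the 31 was 24.1. H1-6, H2BC3, H4C5 and H4C9 were just outside, with 1 array at the median, and H1-3, H2AC8 and H2BC4 just inside, with 2. The 18 were thus a minority, and statements on them do not extend to all histone genes.

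**Figure D1:**
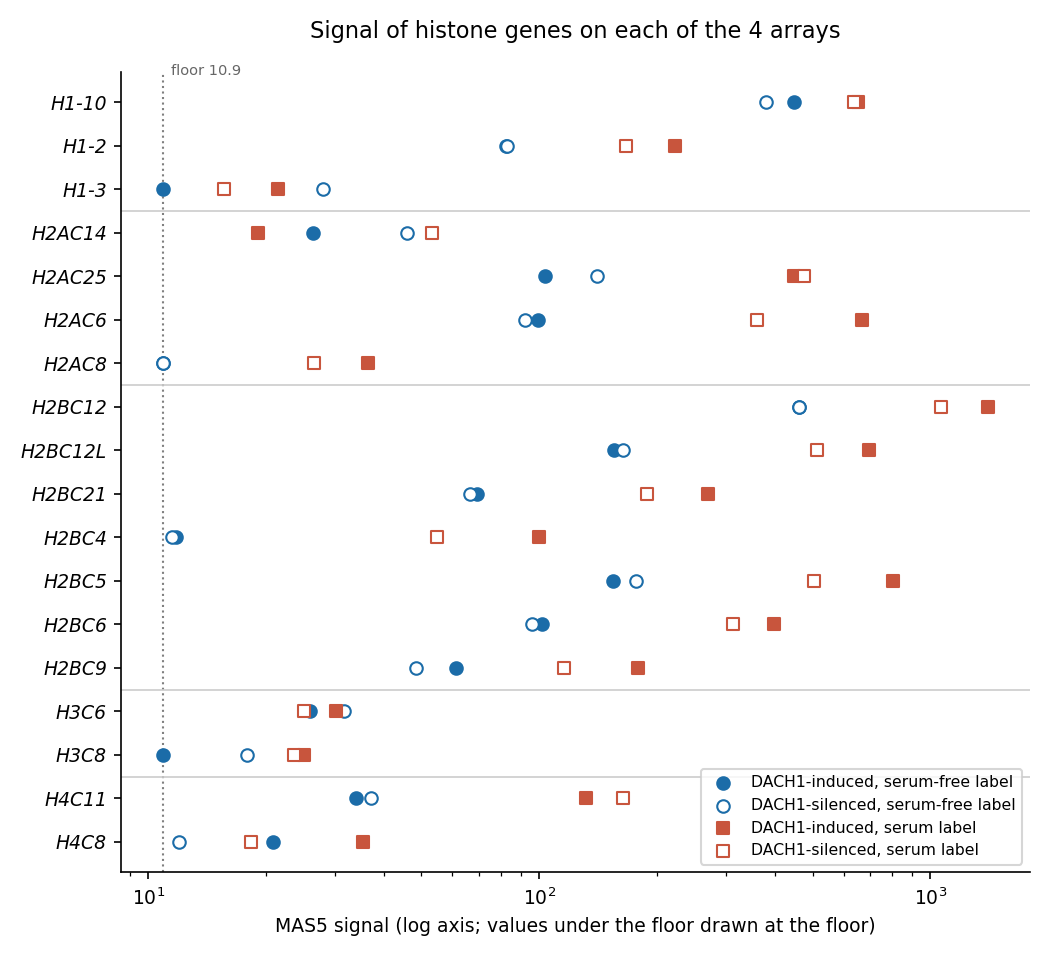
Signal of each of the 18 histone genes in the fit on each of the 4 arrays (log axis, MAS5 intensity), grouped by family, with filled points for DACH1-induced and open points for DACH1-silenced cells, circles for the serum-free and squares for the serum label. The limma fit called 12 genes lower, and for these both serum-free arrays lie below both serum arrays, as goes with a call. The arrays of the media overlap for H2AC14, H3C6, H1-3 and H4C8.

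The array labels were read against DACH1 itself, which gave 875.1 in induced and 32.5 in silenced cells labelled serum-free, and 4431.0 in induced and 126.0 in silenced cells labelled serum. Of 10 glial and glioma markers, GFAP, S100B, SOX2 and AQP4 lay under 10.9 on all 4 arrays, whereas VIM read between 6065.4 and 9277.8 and CD44 between 4213.6 and 5665.5. OLIG2 gave 12.3 in induced and 12.2 in silenced cells labelled serum-free, against 79.9 in induced and 58.4 in silenced cells labelled serum, and fell 5.58-fold (adjusted p 0.0170 in limma). OLIG2 entered the fit only through its serum arrays, so it had to be lower under the serum-free label. SLC1A3 stood at 12.8 in induced cells labelled serum and between 104.1 and 158.0 on the other 3 arrays. The part of these markers in the histone values was not tested. Of 12 named markers of blood, vessel, epithelial, liver and muscle cells, 3 lay under 10.9 on all arrays, and the 12 summed to 129.8 and 161.9 in induced and silenced cells labelled serum-free, against 142.3 and 120.1 in induced and silenced cells labelled serum. Of 15 genes of the serum and actin response in the fit, 8 rose and 3 fell under the serum-free label. The 3 that fell were SRF and the immediate serum-response genes EGR1 and FOS (SRF and FOS named after their values were seen). FOS entered the fit only through its serum arrays, so it had to be lower. EGR1 read 38.0 in induced and 66.4 in silenced cells labelled serum-free, against 1570.8 in induced and 1284.3 in silenced cells labelled serum, the direction the labels imply. Those that rose included THBS1 at 23.2-fold and the contractile genes CNN1 and TAGLN at 20.1-fold and 10.1-fold. Most called genes of this list thus ran opposite to EGR1. Of 13 sterol synthesis genes 1 rose and 0 fell. The media are named here by their labels, and whether the labels are right was not tested.

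The comparison of the media asked how the histone genes differed between cells labelled serum-free and cells labelled serum. In the limma fit, with DACH1 state as the other term and adjustment over all 12103 genes, 12 histone genes fell under the serum-free label and 0 rose. Over all genes in the fit, 12.7% fell and 15.4% rose. The 12 were 7 H2B genes, H2AC6, H2AC8 and H2AC25 of H2A, H1-2 and H4C11, with adjusted p from 0.0170 to 0.0295 in limma. The median log2 difference of the 18 genes was -1.46, against 0.02 for all genes, and 16 of the 18 lay below 0. These counts and the median include H2BC4 and H2AC8. Both entered the fit only through their serum arrays and so had to be lower. With no filter on low signals, limma called 0 of 49 histone genes and 0 of 19775 genes, 4531 of all genes having an unadjusted p under 0.05. All 12 kept a negative log2 difference in that fit, with adjusted p between 0.116 and 0.243.

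H2BC4 had the largest difference among the histone genes. It encodes an H2B protein and read 11.8 with DACH1 induced and 11.5 with it silenced under the serum-free label, against 99.8 induced and 54.8 silenced under the serum label. Both serum-free arrays lay close to the floor and far below both serum arrays. The log2 difference was -2.67 (SE 0.27), or 6.35-fold lower, with an adjusted p of 0.0188 in limma. H2BC4 entered the fit only through its serum arrays, so it had to differ between the media, and the same holds for H2AC8.

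H2AC6, which shares the promoter region printed above with H2BC4, encodes an H2A protein. Its signal was 99.5 in induced and 92.0 in silenced cells labelled serum-free, against 670.8 in induced and 361.5 in silenced cells labelled serum. Here all 4 arrays were above the median and the media did not overlap. H2AC6 fell by 2.36 on the log2 scale (SE 0.26), a fold of 5.15, with an adjusted p of 0.0197 in limma. The drop was 6.74-fold in induced and 3.93-fold in silenced cells. H2AC6 and H2BC4 were the only head-to-head pair with both genes in the fit. In the pairs H2AC14 and H2BC14, H2AC15 and H2BC15, and H2AC17 and H2BC17, at least 1 partner did not pass the filter.

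The other H2A genes that fell were H2AC25 and H2AC8. H2AC25, on chromosome 1 outside the main cluster, read 103.4 in induced and 140.2 in silenced cells labelled serum-free, against 449.5 in induced and 475.9 in silenced cells labelled serum. Both serum arrays were more than 3-fold above both serum-free arrays. The log2 difference was -1.94 (SE 0.20; adjusted p 0.0188 in limma). Its dimmer probe set gave 13.7 and 12.6 in induced and silenced cells labelled serum-free, against 16.9 and 22.4 in induced and silenced cells labelled serum, the same direction but close to the floor. H2AC8 lay at or under the floor of 10.9 in the serum-free label, with 1.3 induced and 10.9 silenced, against 36.6 induced and 26.5 silenced in the serum label. Its drop was at least 3.36-fold in induced and 2.43-fold in silenced cells, where the serum-free signal lay at the floor, and the log2 difference of -1.51 had an adjusted p of 0.0235 in limma. Without a floor this p was 0.111.

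The 7 H2B genes in the fit all fell, where 12.7% of all genes did, but H2BC4 among them had to differ by the filter. The other 7 of the 14 H2B genes were too dim for the fit. H2BC12 read 461.4 in induced and 460.5 in silenced cells labelled serum-free, against 1408.4 in induced and 1066.9 in silenced cells labelled serum. The serum-free arrays were nearly equal and the serum arrays both more than 2-fold above them, for a log2 difference of -1.41 (SE 0.20; adjusted p 0.0242 in limma). H2BC21, of the chromosome 1 cluster, read 69.2 induced and 66.6 silenced in the serum-free label, against 270.6 induced and 189.1 silenced in the serum label, and was 3.33-fold lower (adjusted p 0.0206 in limma). Again the serum-free arrays lay together and the induced serum array was the highest.

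H2BC5 was read by a pair of probe sets of similar order. The brighter gave 154.6 in induced and 176.3 in silenced cells labelled serum-free, against 803.0 in induced and 503.5 in silenced cells labelled serum. The dimmer gave 128.2 induced and 138.6 silenced, against 618.9 induced and 388.9 silenced. In both, the media were apart and the induced serum array was the highest. The brighter was 3.85-fold lower in limma (adjusted p 0.0242).

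The remaining H2B genes were H2BC6, H2BC9 and H2BC12L, a gene on chromosome 21. H2BC6 gave 101.7 induced and 95.9 silenced in the serum-free label, against 397.3 induced and 313.0 silenced in the serum label (3.57-fold lower, adjusted p 0.0188 in limma). H2BC9 gave 61.1 induced and 48.3 silenced, against 179.2 induced and 115.7 silenced (2.65-fold lower, adjusted p 0.0227 in limma). H2BC12L gave 155.6 induced and 163.9 silenced, against 695.2 induced and 514.4 silenced (3.74-fold lower, adjusted p 0.0200 in limma). The media did not overlap in these genes, as goes with a call. Like H2BC5, all of them were read by probe sets ending in _x_at, the Affymetrix mark for probes that can also match other transcripts, so their signals may share RNA with near-identical H2B genes.

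Of the other families, H1-2, a linker histone of the chromosome 6 cluster, read 82.4 in induced and 82.5 in silenced cells labelled serum-free, against 222.0 in induced and 166.9 in silenced cells labelled serum. The serum-free arrays were alike and both serum arrays at least 2-fold above them, and H1-2 fell by 1.22 on the log2 scale (SE 0.21; adjusted p 0.0295 in limma). H4C11, an H4 gene also read by an _x_at probe set, gave 34.0 induced and 37.1 silenced in the serum-free label, against 131.9 induced and 163.5 silenced in the serum label. It was 4.13-fold lower with the smallest adjusted p of the histone genes, 0.0170 in limma. A probe set annotated to 14 H4 genes, H4C11 among them, ran the other way, with 139.3 induced and 145.6 silenced in the serum-free label, against 52.6 induced and 71.1 silenced in the serum label.

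Not all histone genes in the fit passed the test. H1-10, a linker histone variant encoded on chromosome 3 and polyadenylated, read 447.1 in induced and 380.3 in silenced cells labelled serum-free, against 651.9 in induced and 638.8 in silenced cells labelled serum. The media did not overlap, but the log2 difference of -0.65 (SE 0.18) had an adjusted p of 0.0705 in limma. It passed with every array required at the median (adjusted p 0.0470), with a floor of 50 (0.0273) and with a trend in limma's variance prior (0.0289). H4C8 differed by -0.68 (adjusted p 0.0610 in limma) and the H3 gene H3C8 by -0.80 (0.0969). H3C6 (0.06), H1-3 (-0.07) and H2AC14 (0.13) were near 0, and for these the arrays of the media overlapped. Thus no H3 gene passed, with 2 of 7 in the fit.

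**Figure D2:**
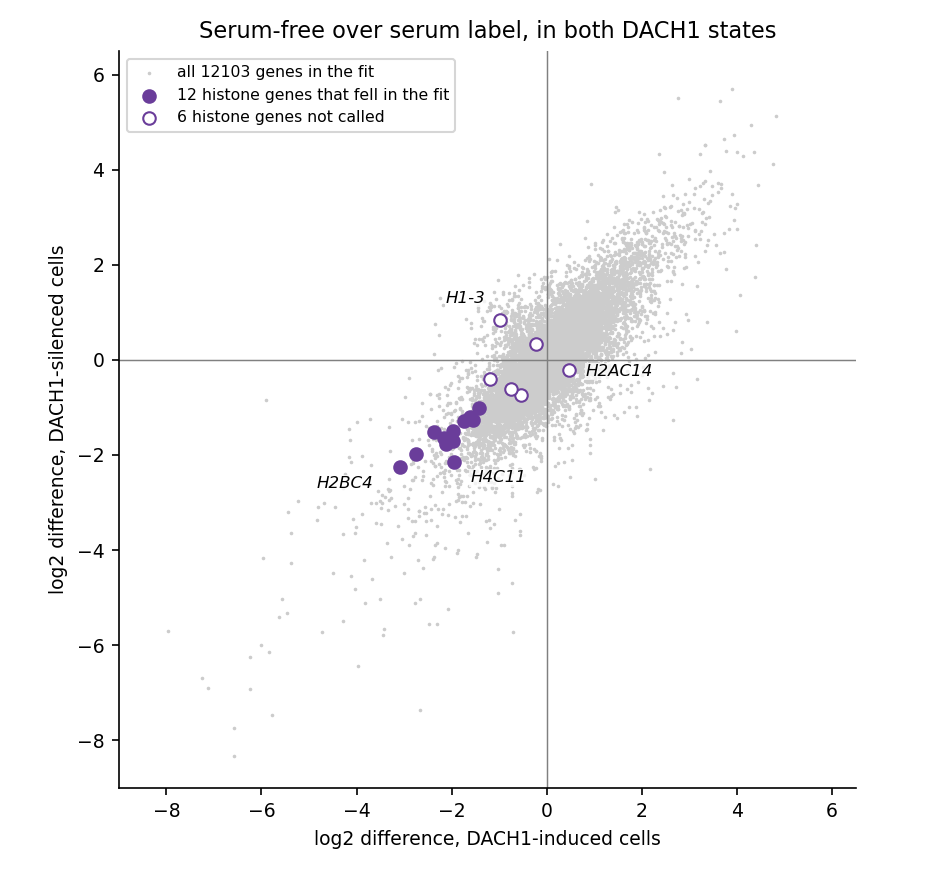
Log2 difference, serum-free over serum label, in DACH1-induced cells (x axis) and in DACH1-silenced cells (y axis) for the 12103 genes in the fit (grey), the 12 histone genes that fell (filled) and the 6 not called (open). The filled points lie together in the lower left, with H2BC4 farthest out, and H4C11 is the only one of the 12 with the larger drop in silenced cells.

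Taken array against array, the drop was present in both DACH1 states. In induced cells 13 of 20 histone genes compared were at least 2-fold lower and 0 higher under the serum-free label, where 10.1% of all 12371 genes were lower and 14.0% higher. Their median log2 difference was -1.58, against 0.01 over all genes. Of the genes compared, H1-3, H1-6, H2AC8, H2BC4, H3C8 and H4C5 entered only through the serum array, so they had to be lower. In silenced cells 12 of 20 were lower and 0 higher, where 12.2% of 12906 genes were lower and 15.3% higher, and the median was -1.24, against 0.06. There H2AC8, H2BC3, H2BC4 and H4C8 entered only through the serum array and had to be lower. H1-3 and H4C9 entered only through the serum-free array and had to be higher. Both pairs were past 2-fold for 12 histone genes, with 6.98% of all 11903 genes lower in both and 9.42% higher in both. For each of the 12 called genes the media did not overlap, which goes with being called here, and the share over all genes was not counted. Over these 12, the smaller of the differences in induced and in silenced cells had a median of -1.58 on the log2 scale. Its size goes with the call too, since the call chose these genes. Of the 12 called genes, 10 had all 4 arrays at or above the median of all signals, as had 3 histone genes that were not called. Without probe sets ending in _x_at or _s_at, 7 histone genes remained in the fit and 5 fell, H2BC4, H2AC25, H2AC8, H2BC12 and H1-2. Since H2BC4 and H2AC8 had to differ by the filter, only H2AC25, H2BC12 and H1-2 bear on this.

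Among 8 histone genes listed as giving a polyadenylated mRNA in part or in whole, 7 had a named probe set and all 7 were in the fit. Of these, 6 fell, H2AC6, H2BC4, H2BC5, H2BC12, H2BC21 and H1-2, and only H1-10 missed the test. Over all genes in the fit 12.7% fell, and H2BC4 had to differ by the filter. Histone genes in the fit but off the list fell too, namely H2AC8, H2AC25, H2BC6, H2BC9, H2BC12L and H4C11, while the rest were not called. Whether the drop goes with polyadenylation was not tested. Of the 11 called genes with a promoter window, 7 held the octamer, H2AC6, H2AC8, H2BC4, H2BC6, H2BC9, H2BC12 and H2BC21, and H2AC14 held it among the 6 other genes in the fit. CCAAT boxes were in 10 of the 11, with the exception of H4C11, and TATAAA in 8. The windows of H2AC6 and H2BC4 overlap and are not separate sequences. These matches are a description of the letters in the windows.

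**Figure D3:**
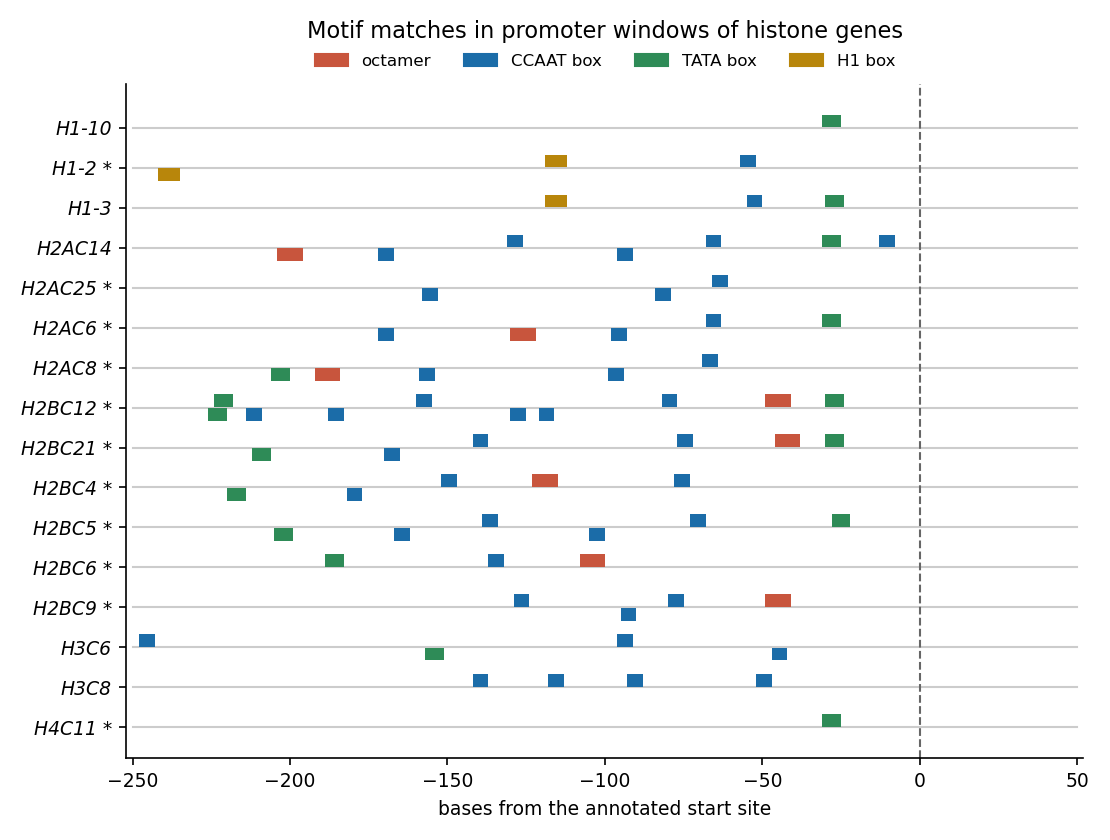
Positions of 4 motifs (colours) in the promoter windows of histone genes in the fit (x axis, bases from the start site), with boxes above the line for matches on the gene's strand, boxes below it for the other strand, and an asterisk for genes that fell. CCAAT boxes are in 14 of 17 windows and the octamer in 8; the H4C8 window holds no match and is not drawn.

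Genes that act on histone mRNA were set beside the histone genes. Of 20 in the fit, 4 fell and 1 rose under the serum-free label, with a median log2 difference of -0.16, where 12.7% of all genes fell and 15.4% rose. CPSF3, the nuclease that cuts histone pre-mRNA, read 298.5 in induced and 305.5 in silenced cells labelled serum-free, against 652.6 in induced and 665.0 in silenced cells labelled serum, and was 2.18-fold lower (adjusted p 0.0273 in limma). The others that fell were CPSF2, the partner of CPSF3 (1.91-fold), ZNF473, a zinc finger protein of histone pre-mRNA processing (1.99-fold), and COIL, which encodes coilin (1.81-fold), while CCNE2, a cyclin E, rose 1.89-fold. COIL and CCNE2 were named after their values were seen. NPAT, the coactivator of histone gene transcription, gave 74.2 induced and 76.0 silenced under the serum-free label, against 101.7 induced and 100.3 silenced under the serum label, a log2 difference of -0.43 with an adjusted p of 0.145 in limma. SLBP, which binds the stem-loop, gave 1246.3 induced and 1121.2 silenced, against 1199.2 induced and 1039.1 silenced (0.08, adjusted p 0.751), with overlapping media.

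Replacement histones are variants with genes of their own, outside the rule. Of 7 in the fit, 2 rose and 0 fell, where 15.4% of all genes rose and 12.7% fell, and 6 lay above 0. H2AJ alone lay below 0, with 315.8 induced and 298.3 silenced in the serum-free label, against 544.2 induced and 454.2 silenced in the serum label. It was 1.62-fold lower and missed the threshold (adjusted p 0.0600 in limma). H2AX, the variant phosphorylated at DNA breaks, read 569.9 in induced and 720.5 in silenced cells labelled serum-free, against 170.5 in induced and 131.7 in silenced cells labelled serum, and rose 4.28-fold (adjusted p 0.0203 in limma). CENPA, the H3 variant of centromeres, gave 141.5 induced and 143.8 silenced, against 48.3 induced and 33.2 silenced, and rose 3.56-fold (adjusted p 0.0209 in limma). For both genes each serum-free array was above each serum array. H2AZ1, a variant of H2A, read 3983.4 induced and 4298.5 silenced, against 2436.0 induced and 2656.3 silenced, a log2 difference of 0.70 that missed the threshold (adjusted p 0.0558 in limma).

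Of 23 histone chaperones in the fit, 4 rose and 0 fell, a share that rose close to the 15.4% of all genes. HJURP, the chaperone of CENPA, rose 4.23-fold, with 765.2 induced and 809.4 silenced under the serum-free label, against 204.2 induced and 169.3 silenced under the serum label. ASF1B, which carries H3 and H4 and is linked to proliferation, rose 4.15-fold. TONSL and CABIN1 rose 2.96-fold and 2.35-fold. TONSL entered the fit only through its serum-free arrays, so it had to be higher under that label. Among genes of the cell cycle, 18 of 25 S phase genes in the fit and 24 of 24 genes of G2 and M phase rose, with median log2 differences of 1.21 and 1.83 and 0 that fell. RRM2, a subunit of ribonucleotide reductase, gave 2409.0 induced and 2826.2 silenced, against 725.2 induced and 367.9 silenced, and rose 5.05-fold (adjusted p 0.0257 in limma). The clustered histone genes had a median of -1.46, with H2BC4 and H2AC8 among them set lower by the filter. This median thus had the opposite sign to that of the S phase genes. The part of cell cycle or of polyadenylation in this was not tested.

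**Figure D4:**
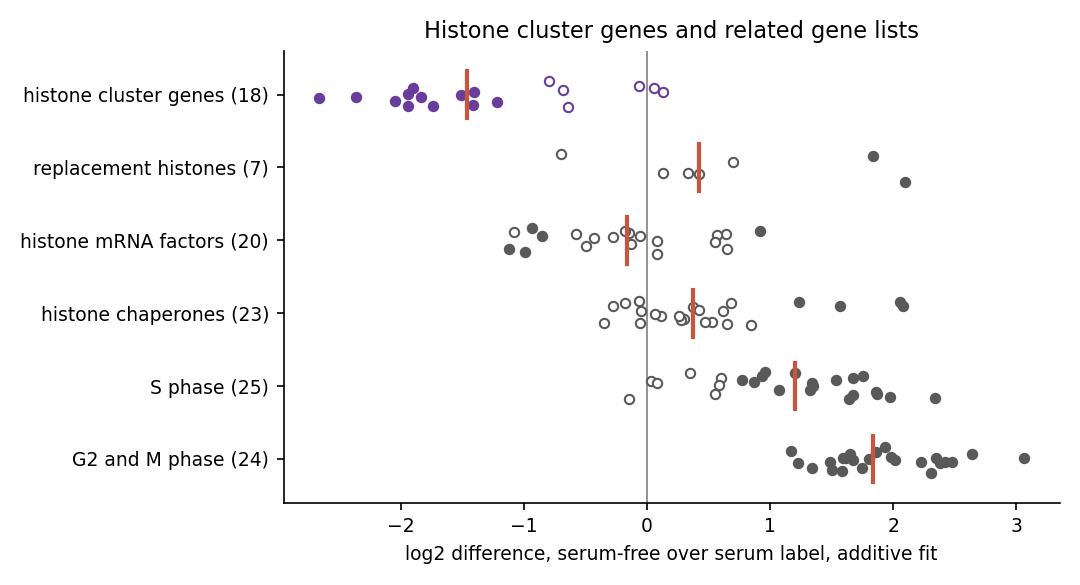
Log2 difference, serum-free over serum label, in the limma fit for the histone cluster genes (top row) and 5 lists set beside them, with the number in the fit in brackets, filled points for called genes and a bar at each median. The 12 filled histone points all lie below 0, and the S phase and the G2 and M phase points lie mostly or wholly above it.

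The other comparison asked how DACH1 induction bore on the histone genes. In the limma fit 0 of 18 histone genes were called for DACH1, and 0% of the 12103 genes were called higher and 0% lower, 585 of them having an unadjusted p under 0.05. The smallest adjusted p in limma was 0.234 over all genes and 0.931 among the histone genes. The 0.234 was that of DACH1 itself, 30.8-fold higher in the fit, so even the induced gene was not called. That 0 histone genes were called therefore cannot show that DACH1 left them unchanged. At an unadjusted p under 0.05 stood 2 of the 18 histone genes, H2AC14 and H4C8, beside 585 of all 12103 genes.

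In the arrays labelled serum-free, 0 of 17 histone genes compared were at least 2-fold higher with DACH1 induced and 1 was lower, where 1.02% of 12659 genes were higher and 2.72% lower. The median of the 17 was -0.07 on the log2 scale, against -0.00 over all genes, and 7 of them lay above 0. Among them H1-3, H3C8 and H4C9 entered only through the silenced array and had to be below 0. H4C8 entered only through the induced array and had to be above 0. H2AC6 differed by 0.11, H2BC12 by 0.00 and H2BC21 by 0.06. H2BC4 and H2AC8 were not compared there, since neither array reached the median.

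In the arrays labelled serum, 0 of 21 histone genes were at least 2-fold higher with DACH1 induced and 1 was lower, where 2.91% of 12190 genes were higher and 4.77% lower. Smaller differences lay mostly on the higher side: 17 of the 21 were above 0, where 50.7% of all genes were, and the median log2 difference was 0.43, against 0.01 over all genes. Among them H1-3, H1-6 and H4C5 entered only through the induced array and had to be above 0. H2BC3 entered only through the silenced array and had to be below 0. H2AC6 was 1.86-fold higher and H2BC4 1.82-fold higher, with log2 differences of 0.89 and 0.86. H2BC5 was 0.67 higher on that scale with both of its probe sets, H2BC9 0.63 and H2BC21 0.52. H2AC25 (-0.08) and H4C11 (-0.31) lay below 0. No test stands behind these differences of single arrays.

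Of the 12 genes that fell between the media, 10 were compared in the serum-free label, where the DACH1 difference ran from -0.44 to 0.34 with 5 above 0. In the serum label all 12 were compared, and it ran from -0.31 to 0.89 with 10 above 0. The 11 of 12 whose drop between the media was larger in induced cells restate this, since the same 4 arrays give both. In the serum label S phase genes had a median of 0.38 with 22 of 25 above 0, and G2 and M phase genes 0.35 with 23 of 24 above 0. Sterol synthesis genes had a median of 0.59 with 13 of 13 above 0 and 2 at least 2-fold higher. Their part in the histone values was not tested.

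**Figure D5:**
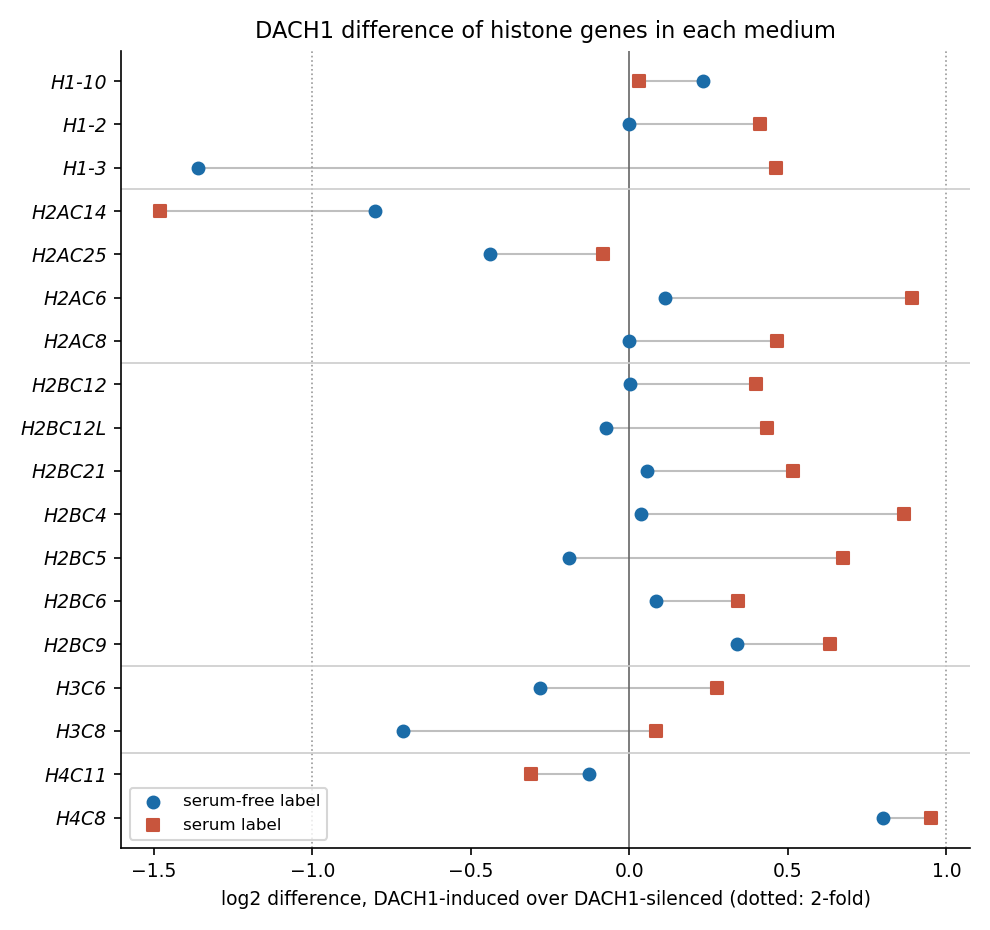
Log2 difference (x axis), DACH1-induced over silenced, of each histone gene in the fit in the arrays labelled serum-free (circles) and labelled serum (squares), with dotted lines at 2-fold, and H2BC4 and H2AC8 drawn in the serum-free label although both arrays lay under the median. Most serum points lie between 0 and 1, the serum-free points scatter about 0, and H2AC14 is below 0 and H4C8 above 0 in both media.

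H2AC14 and H4C8, with an unadjusted p under 0.05, differed in 1 direction in both media, as did several other histone genes by less. The error of the fit is the difference between the DACH1 differences in the media. Agreement between the media, and induced arrays apart from silenced ones, therefore go with a low p and add nothing to it. H2AC14, an H2A gene read by an _x_at probe set, gave 26.4 in induced and 46.0 in silenced cells labelled serum-free, and 19.1 in induced and 53.3 in silenced cells labelled serum. Both induced arrays were below both silenced arrays. With DACH1 induced it was 1.74-fold lower in the serum-free label and 2.79-fold lower in the serum label, and the limma estimate was -1.14 (SE 0.25, unadjusted p 0.0102, adjusted p 0.931). H4C8 gave 20.9 in induced and 12 in silenced cells labelled serum-free, and 35.4 in induced and 18.3 in silenced cells labelled serum. It was 1.74-fold higher with DACH1 induced in the serum-free label and 1.93-fold higher in the serum label. Both induced arrays were above both silenced arrays, although the silenced signals lay near the floor. The limma estimate was 0.88 (SE 0.18, unadjusted p 0.00879, adjusted p 0.931). Its dimmer probe set gave log2 differences of 0.33 in the serum-free and 0.45 in the serum label.

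H1-3, a linker histone of the main cluster, was the histone gene at least 2-fold lower in the serum-free label. It read 4.5 in induced and 28.0 in silenced cells labelled serum-free, at least 2.57-fold lower, and 21.5 in induced and 15.6 in silenced cells labelled serum, a log2 difference of 0.46. The lowest array lay under the floor and the other 3 within 15.6 to 28.0, so the direction turned between the media on dim signals.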

How the data were processed

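Total RNA was measured on 4 Affymetrix arrays, 1 per condition, with labelled cRNA made from 6 µg of RNA per the labels. The authors deposited a linear signal intensity per probe set, and the submitters' processing notes name MAS5 as the tool, whose version and target intensity are not given in the sources used. The means after trimming 2% at each end lay between 99.63 and 99.65, and the median signals between 15.7 and 19.3. No columns of the table were unused (0), and no pair of arrays shared more than 569 equal signals. Precision is limited by the number of arrays.

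Of 54613 probe sets, 41091 named 1 gene in the platform annotation, 1801 several and 11721 none. Symbols were updated through Entrez identifiers (99.9%). Each gene was read from its brightest probe set (mean log2 of floored signals), and 7 histone genes had more than 1. Pseudogenes and H2BC12L match the rule and were kept, and an antisense transcript was not. A gene entered a pair of arrays when 1 of them reached 17.2. Pairs of single arrays have no test and were counted at 2-fold. limma (lmFit and eBayes) used DACH1 state and medium as terms with 1 residual degree of freedom, whose error is the interaction, and Benjamini-Hochberg adjustment with a threshold of 0.05. It was tested on simulated data.

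Named were histone genes that reached 2-fold in a pair, were called, were among the 10 brightest or were on the polyadenylated list, and up to 4 genes per other list and effect, with NPAT, SLBP, H2AX and H2AZ1. H4C8 and H3C6 are outside that rule and were named after their values were seen. The 10 lists held 170 genes, 14 of them not named by a probe set. The members and lists were chosen with earlier results of these data known. Promoters are RefSeq windows of 300 bases, matched by symbol or gene identifier, for 43 of the 49 genes. Alternatives changed the normalization (quantile), the floor (none, a pseudocount of its size, or 50 with an array at 100), the filter (none, or every array at the median), the probe sets (their mean, or none ending in _x_at or _s_at), the variance prior (with a trend) and the arrays (each left out). Fits ran in limma 3.58.1 under R 4.3.3, and the rest in Python 3.11.15 (matplotlib 3.10.9, numpy 2.4.6, pandas 2.3.3).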

Additional observations from a re-analysis of the deposited data

Results flagged for a closer look

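A further 20 probe sets name several genes, histone genes among them, and entered no comparison of the report. Of these, 15 had an array at the median, 8 were at least 2-fold lower under the serum-free label in both DACH1 states and 1 was higher. Over all genes read from probe sets naming 1 gene, 6.98% were lower and 9.42% higher in both states. The 8 are not separate readings, since several name the same genes, and some name H2BC4, H2BC6 or H4C11, which were already counted. Some of the 8 reached the median only on their serum arrays, so they had to be lower. They are the probe set of 6 H2A genes, that of H3C4 and H2AC7, and the _at probe set of 5 H2B genes. All differences here are log2 values, serum-free over serum label. A pair of probe sets annotated to the same 14 H4 genes, H4C8 and H4C11 among them, differed in sign. The _x_at one gave -2.91 in induced and -2.46 in silenced cells, and the _at one gave 1.41 in induced and 1.03 in silenced cells. The _at signals were 139.3 in induced and 145.6 in silenced cells labelled serum-free, against 52.6 in induced and 71.1 in silenced cells labelled serum.

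A pair annotated to H2AC18 and H2AC19 gave -2.17 in induced and -1.14 in silenced cells for the _s_at probe set, and -2.30 in induced and -1.35 in silenced cells for the _x_at one. A probe set of 6 H2A genes gave -2.09 in induced and -2.06 in silenced cells. Probe sets of 5 genes each, 3 in number, gave -2.26, -1.63 and -2.16 in induced cells, and -1.61, -1.48 and -1.74 in silenced cells. The probe set of H3C4 and H2AC7 gave -1.82 in induced and -1.15 in silenced cells.

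H1-3 had opposite DACH1 differences in the media, and the serum-free difference less the serum one was -1.82. This difference was not tested, and 1 of its 4 signals lay under the floor. The filter set the direction in each medium, since only 1 array of each pair reached the median.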

How the results depend on the processing

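The 12 histone genes that fell between the media stayed called in limma under quantile normalization, a pseudocount, the mean of all probe sets and a trended variance prior. Without a floor 11 did, and under stricter filters all 10 that were tested did. With no filter 0 of 49 were called and the median differences were 0.00 in the fit, in both comparisons of the media and for DACH1 in serum, since dim genes sit at the floor. Over all genes the medium calls were 3396, against 2107 without a floor and 0 without a filter.

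Without _x_at and _s_at probe sets, 5 histone genes fell in the fit and 5 were 2-fold lower in each DACH1 state, the medians were -1.20 in induced and -1.02 in silenced cells, the DACH1 median in serum-free was -0.33 and 0 genes were 2-fold lower for DACH1 in serum. With a floor of 50 the medians were -1.97 in induced and -1.51 in silenced cells and -1.74 in the fit, and 0 genes were 2-fold lower for DACH1 in either medium. With every array at the median, the fit gave -1.74 and 0 genes were lower for DACH1 in serum-free. Without a floor, 2 genes were lower for DACH1 in serum-free, 2 were lower and 1 higher in serum, and the median between the media was -1.96 in induced cells. A pseudocount gave -1.01 in silenced cells, and quantile normalization 1 gene higher for DACH1 in serum.

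The DACH1 estimate of H2AC8, 0.23 in the fit, turned to -1.30 without a floor and -0.25 with a pseudocount. Its only signal under the floor was 1.3, in induced cells labelled serum-free, which the floor had set to 10.9. Leaving out each array gave medians from -1.68 to -1.27 between the media and from -0.00087 (without either serum array) to 0.42 (without either serum-free array) for DACH1, where all 4 arrays gave 0.20, with no test. Over all genes limma called 0 genes for DACH1, and 1 with every array at the median or with a trended prior. No paired analysis was possible because no condition was repeated, so no replicate numbers link arrays; the fit itself compares the media with DACH1 state as a term. Signals near 10.9 have no order, and a change of genes below it could not be seen.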
